A study of Mus musculus with 24 samples.

Results

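Early in the light phase, 2 h after lights on (zeitgeber time 2, ZT2), liver RNA of mice that lack the clock gene Bmal1 in hepatocytes was compared with that of controls that keep it. Bmal1 is listed under its gene symbol Arntl. The comparison takes the 4 libraries whose labels and column names give ZT2, 2 HepKO and 2 HepWT, out of the 24 libraries of a series that sampled both genotypes at ZT2, 6, 10, 14, 18 and 22. HepKO mice carried the transgene Alb::Cre_+/0 together with Bmal1_fl/fl, and HepWT mice carried the same floxed alleles with Alb::Cre_0/0, that is without Cre. The genotypes thus differ both in Arntl and in Cre, and their parts cannot be told apart. Mice of both groups were C57BL/6, 8 to 12 weeks old, and had food at night only. The albumin promoter drives Cre in hepatocytes, so the other cells of the liver keep Arntl, and in RNA of whole liver fewer cells of a type and less RNA per cell cannot be told apart. The labels leave unsaid if the 2 libraries of a group are 2 animals, so p-values reflect only how far these libraries differ, which may be partly technical.

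In the circadian clock the proteins BMAL1 and CLOCK, or its relative NPAS2, bind E-boxes as a pair and switch on the Per and Cry genes, whose products return to block them. A second loop runs through the REV-ERB repressors (Nr1d1, Nr1d2) and ROR activators such as Rora, which compete for RORE sites, among others in Arntl and Npas2. Another runs through the D-box activators Dbp, Tef and Hlf. In the liver these loops time many metabolic genes. In control liver, early light is the time at which Arntl RNA is high and the RNAs of E-box and D-box targets are low.

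The 4 libraries held between 24720721 and 29769983 counts, within the 12997689 to 30677807 of the whole series, and 17275 of 35304 genes had enough counts to be tested. Levels are given as CPM, counts scaled to library size with TMM, and differences as log2 of HepKO over HepWT with a standard error (SE). A gene is called where the edgeR quasi-likelihood F test, with the spread estimated from all 24 libraries, gave an adjusted p below 0.05. The HepWT replicates at ZT2 differed more from each other than the HepKO replicates did, with 186 against 79 of 11366 genes apart by more than 2-fold. Markers of hepatocytes other than Alb summed to 53983 and 52140 CPM in HepKO and to 51245 and 47548 CPM in HepWT.

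Between HepKO and HepWT, 321 genes differed in level at ZT2, which is 1.86% of those tested. Of these, 163 (0.944%) were higher in HepKO and 158 (0.915%) lower, 86 and 82 of them by at least 2-fold. In all 321 the libraries of the genotypes did not overlap, so a gap between the groups adds nothing to a call. At the other times the same fit called between 233 genes (ZT22) and 1332 genes (ZT10). For 292 of the 321 genes the mean of the other 5 times was called as well, with the same sign. The share of all tested genes called in that mean was not counted, so 292 is given without its background. In a smaller set of 38 genes (0.22%) the genotype difference at ZT2 departed from that mean by its own test. The mean spans all 5 other times, and several of these genes differed at ZT6 or ZT22 in the same direction as at ZT2. Against ZT22 and ZT6 alone 3 genes were called. In 14 of the 38 the departure was towards HepKO, led by the clock genes and clock outputs Dbp, Per3, Usp2, Per2 and Tef. In 24 it was towards HepWT, with Npas2, Loxl4, Arntl and Vtcn1 the largest among named genes; some of the 24, among them 2 predicted gene models, are not named.

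The deleted gene was first read in each library. Arntl stood at 15.2 and 16.3 CPM in HepKO and 43.8 and 46.0 CPM in HepWT, so the HepKO libraries kept part of the reads and the groups did not overlap. The log2 difference was -1.51 ± 0.17 (edgeR adjusted p = 7.07e-05). Counts cover the whole gene, so reads outside the floxed part and from cells without Cre are included. ZT2 was the time of the highest HepWT mean, 44.9 CPM against 1.33 CPM at ZT10, whereas the HepKO means of all 6 times lay between 11.1 and 16.8 CPM. Arntl was called lower in HepKO also at ZT18 (-0.96, adjusted p = 0.00295) and ZT22 (-1.31, adjusted p = 0.000355) and higher at ZT10 (3.05) and ZT14 (1.52), which made the mean of the other 5 times positive (0.36 ± 0.08). The ZT2 difference departed from that mean by -1.87 ± 0.18 (adjusted p = 4e-05), but not by the test from ZT22 and ZT6 alone (-0.60 ± 0.20, adjusted p = 1).

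Of the partners of BMAL1, Npas2 rose and Clock did not pass the test. Npas2 had 26.3 and 19.5 CPM in HepKO and 8.52 and 7.23 CPM in HepWT, with every HepKO library above every HepWT library (1.54 ± 0.23, adjusted p = 0.00126). The mean difference over the other 5 times was larger, 4.86, as HepWT fell to 0.138 CPM at ZT10 while HepKO stayed at 20.2 CPM. The departure of ZT2, -3.32 ± 0.29 (adjusted p = 7.4e-06), was the largest towards HepWT. Clock had 138 and 133 CPM in HepKO and 129 and 106 CPM in HepWT, a difference of 0.20 ± 0.12 (adjusted p = 0.495) between groups that lay close together without overlapping.

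The negative limb stood higher in HepKO at this time. Per2, which encodes a repressor of BMAL1 and CLOCK, had 19.6 and 22.8 CPM in HepKO and 6.00 and 3.65 CPM in HepWT, a 4.39-fold difference (2.13 ± 0.22, adjusted p = 3.59e-05). Per3, its relative, had 7.40 and 7.66 CPM in HepKO and 2.00 and 2.55 CPM in HepWT (1.72 ± 0.19, adjusted p = 7.07e-05). In both genes each HepKO library exceeded each HepWT library by more than the replicates of a group differed. Cry1, the main late repressor, had 66.1 and 64.2 CPM in HepKO and 19.99 and 14.2 CPM in HepWT (1.93 ± 0.14, adjusted p = 9.97e-07), and Bhlhe40, a repressor that competes for E-boxes, had 51.0 and 63.6 CPM in HepKO and 20.8 and 21.8 CPM in HepWT (1.43 ± 0.22, adjusted p = 0.00139). The groups were again apart in all 4 libraries of each gene. These 4 calls held without each of the 24 libraries in turn. Cry1 was called higher in HepKO also at ZT6 (3.47), ZT10 (2.59) and ZT14 (1.54). Its ZT2 difference did not depart from the mean of the other 5 times by the edgeR test (adjusted p = 0.867).

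Per1 and Cry2 were called as well, but near the threshold. Per1 had 3.43 and 4.25 CPM in HepKO and 1.12 and 0.674 CPM in HepWT (2.09 ± 0.52, adjusted p = 0.0494), and Cry2 had 34.9 and 35.8 CPM in HepKO and 20.1 and 22.5 CPM in HepWT (0.73 ± 0.18, adjusted p = 0.0441). Neither set of libraries overlapped. Both calls were lost without any 1 of the 4 ZT2 libraries, at 1.77 to 2.51 for Per1 and 0.65 to 0.82 for Cry2, and at unchanged differences without either library of HepKO at ZT6, 10, 18 or 22. Per1 lost its call also without either HepWT library of ZT6, 10 or 14, and Cry2 without either HepWT library of ZT18.

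Both REV-ERB genes fell. Nr1d1, which encodes REV-ERB alpha, had 1.21 and 2.85 CPM in HepKO and 17.3 and 11.8 CPM in HepWT (-2.82 ± 0.37, adjusted p = 0.000515), and Nr1d2, for REV-ERB beta, had 10.9 and 13.4 CPM in HepKO and 34.9 and 27.0 CPM in HepWT (-1.34 ± 0.17, adjusted p = 0.000298). Both were apart in every library and kept their calls without each library. Their mean differences over the other 5 times were called as well, -1.48 for Nr1d1 and -1.81 for Nr1d2. From these means ZT2 did not depart by the edgeR test (adjusted p = 0.41 and 0.631). Rora, an activator that competes for the same sites, lay at 136 to 146 CPM in all 4 libraries (0.08 ± 0.12, adjusted p = 0.86). Bhlhe41 ran from 0.0779 to 0.281 CPM over the 4 libraries, and Ciart had 1 count in the HepKO and 3 counts in the HepWT libraries together, so neither could show a difference at this depth. Over the 15 core clock genes, 8 were called higher and 3 lower at ZT2, with a median log2 difference of 0.73 beside -0.00272 over all tested genes.

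**Figure D1:**
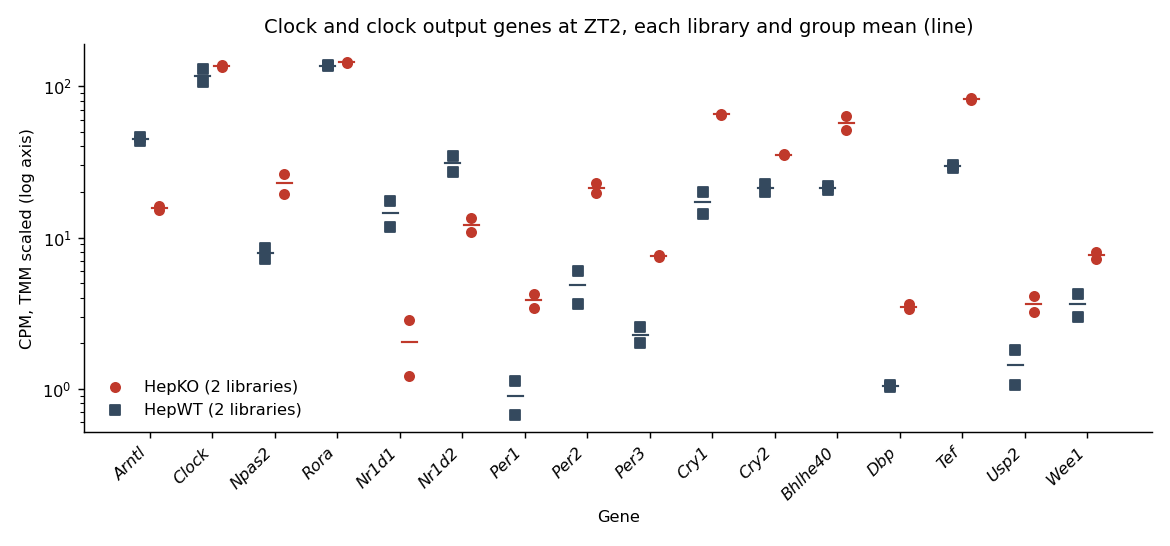
Levels at ZT2 of 16 clock and clock output genes (x axis) in CPM scaled by TMM on a log axis (y axis). Circles are the 2 HepKO libraries, squares the 2 HepWT libraries, and short lines the group means. Arntl, Nr1d1 and Nr1d2 are lower in HepKO, Clock and Rora lie close together in both groups, and the other 11 genes are higher in HepKO.

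The D-box activators and their fellow clock outputs held the largest departures of ZT2 towards HepKO. Dbp (chromosome 7, 45705088 to 45710203, plus strand, GRCm38) had 3.35 and 3.63 CPM in HepKO and 1.05 and 1.03 CPM in HepWT. Each HepKO library was thus above each HepWT library (1.74 ± 0.27, adjusted p = 0.00154). Over the other 5 times Dbp was lower in HepKO, by a mean of -1.66, so that ZT2 departed by 3.40 ± 0.28 (adjusted p = 5.26e-06), the largest departure towards HepKO. HepWT Dbp ran from 1.04 CPM at ZT2 to 137 CPM at ZT10, and HepKO Dbp from 2.92 CPM at ZT22 to 18.8 CPM at ZT10.

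Tef, the second D-box activator (chromosome 15, 81802421 to 81826863, plus strand), had 83.6 and 81.7 CPM in HepKO and 28.8 and 30.4 CPM in HepWT, a 2.80-fold difference with hardly any spread inside the groups (1.48 ± 0.12, adjusted p = 4.21e-06). Its mean difference over the other times was -0.42, and the departure of ZT2 was 1.90 ± 0.14 (adjusted p = 8.79e-07). HepWT Tef was lowest at ZT2, at 29.6 CPM against 251 CPM at ZT10, while HepKO means moved only between 81.4 and 111 CPM.

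Per3 (chromosome 4, 151003652 to 151044665, minus strand) followed the same course. Its mean difference over the other times was -1.17, and that at ZT2 departed from it by 2.90 ± 0.20 (adjusted p = 8.79e-07). For Per2, which was higher in HepKO at ZT6 as well (1.83, adjusted p = 0.000144), the mean over the other times did not pass the test (0.18, adjusted p = 0.163), and its departure was 1.95 ± 0.23 (adjusted p = 0.000466). The HepWT mean of Per2 was lowest at ZT2, 4.82 CPM, and highest at ZT14, 90.1 CPM. In HepKO the mean still rose from 20.2 CPM at ZT6 to 75.0 CPM at ZT14.

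Wee1, which encodes a kinase that holds back entry into mitosis and is a textbook clock output, had 8.07 and 7.17 CPM in HepKO and 2.98 and 4.26 CPM in HepWT (1.07 ± 0.19, adjusted p = 0.00517). The departure of ZT2 was 1.59 ± 0.20 (adjusted p = 0.00112) from a mean of -0.52 at the other times. Usp2, a deubiquitinase, had 4.09 and 3.21 CPM in HepKO and 1.05 and 1.81 CPM in HepWT (1.34 ± 0.30, adjusted p = 0.029), with a departure of 2.00 ± 0.32 (adjusted p = 0.0102). At the neighbouring ZT6 both genes were called higher in HepKO, Wee1 by 1.04 (adjusted p = 0.0052) and Usp2 by 1.53 (adjusted p = 0.0063), whereas their most negative differences were at ZT10 and ZT14. For Bhlhe40 the departure was 1.59 ± 0.23 (adjusted p = 0.00432). In all 3 genes the groups were apart at ZT2, with Usp2 the most spread within HepWT.

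The departures of Dbp, Per3, Tef, Per2 and Wee1 were called without each of the 24 libraries in turn. That of Usp2 was lost without HepKO ZT2 replicate 1 (1.82) or HepWT ZT2 replicate 1 (1.66), and that of Bhlhe40 without HepKO ZT2 replicate 2 (1.42) or HepWT ZT2 replicate 2 (1.62). The ZT2 difference of Wee1 lost its call without HepKO ZT2 replicate 1 (0.99), and that of Usp2 without any 1 of the 4 ZT2 libraries (1.01 to 1.78). Against its 2 neighbours in time alone, ZT22 and ZT6, the ZT2 difference was called for 3 genes of all those tested: Dbp (2.45 ± 0.31, adjusted p = 0.00273), Per3 (2.09 ± 0.22, adjusted p = 0.000775) and Tef (1.25 ± 0.15, adjusted p = 0.0019). Dbp overlaps Sphk2, Nr1d1 overlaps Thra and Per3 lies within the annotated bounds of Camta1, and how their shared reads were assigned is not known here.

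**Figure D2:**
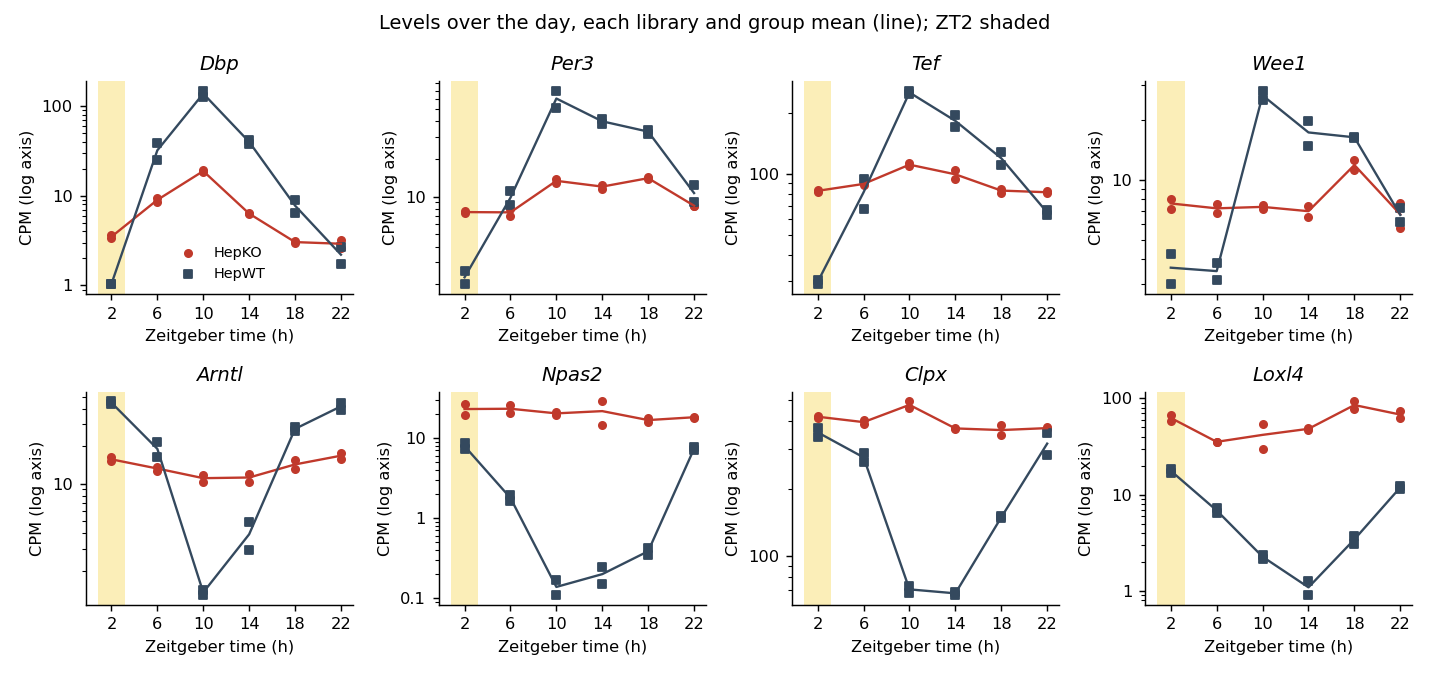
Levels of 8 genes over the day in CPM on log axes (y) against zeitgeber time in hours (x), with ZT2 shaded. Circles are HepKO libraries, squares HepWT libraries, and lines join group means. In the upper row HepWT is lowest or next to lowest at ZT2 and lies below HepKO there, and in the lower row HepWT is highest at ZT2, above HepKO for Arntl and below it for Npas2, Clpx and Loxl4.

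Promoter sequence is shown for 4 genes called in the contrast of ZT2 with the other times, to let the letters be set beside the levels. In each of them at least 1 of the 3 clock motifs was found. The windows are RefSeq's, on GRCm38.p6, from 250 bases before the annotated start to 50 after it, written 5′ to 3′ along the gene. Capitals mark CACGTG (E-box), ANTAGGTCA or ANTGGGTCA (RORE) or TTATGNAA (D-box), searched on both strands. Arntl is at chr7:113207261-113207560 (plus strand, RORE), Tef at chr15:81802423-81802722 (plus strand, E-box), Per3 at chr4:151044616-151044915 (minus strand, 2 D-boxes) and Coq10b at chr1:55052520-55052819 (plus strand, D-box and E-box).
Arntl: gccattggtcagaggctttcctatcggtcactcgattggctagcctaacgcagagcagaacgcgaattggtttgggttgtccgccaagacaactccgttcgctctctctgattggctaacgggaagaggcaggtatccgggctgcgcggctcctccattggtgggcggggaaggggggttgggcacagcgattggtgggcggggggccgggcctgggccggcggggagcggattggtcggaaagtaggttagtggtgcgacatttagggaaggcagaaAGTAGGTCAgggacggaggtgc
Tef: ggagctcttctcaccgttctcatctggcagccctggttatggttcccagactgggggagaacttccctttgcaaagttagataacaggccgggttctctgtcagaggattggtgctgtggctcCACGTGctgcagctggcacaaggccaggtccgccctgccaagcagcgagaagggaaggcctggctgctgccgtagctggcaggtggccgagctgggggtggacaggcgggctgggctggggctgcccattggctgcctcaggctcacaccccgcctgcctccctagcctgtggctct
Per3: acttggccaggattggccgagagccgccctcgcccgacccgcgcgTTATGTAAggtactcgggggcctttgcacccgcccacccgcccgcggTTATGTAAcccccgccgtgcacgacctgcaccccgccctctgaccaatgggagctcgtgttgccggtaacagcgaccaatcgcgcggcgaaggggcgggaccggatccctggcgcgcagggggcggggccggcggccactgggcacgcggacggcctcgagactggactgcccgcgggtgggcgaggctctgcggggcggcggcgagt
Coq10b: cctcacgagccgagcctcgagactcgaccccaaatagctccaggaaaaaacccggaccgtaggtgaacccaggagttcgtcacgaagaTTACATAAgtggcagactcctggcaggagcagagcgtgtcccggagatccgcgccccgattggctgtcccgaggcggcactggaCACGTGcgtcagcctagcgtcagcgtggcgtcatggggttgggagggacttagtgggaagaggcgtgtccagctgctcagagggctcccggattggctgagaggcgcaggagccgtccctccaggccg

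Over all 32851 such windows, the E-box was present in 7.15%, the RORE in 1.45% and the D-box in 3.38%. Of the 14 genes that departed towards HepKO, 9 had a window; 2 of these held the E-box (Tef, Coq10b) and 3 the D-box (Per3, Coq10b, Cyp2a5). Among the genes that departed towards HepWT, 21 are named here, of which 17 had a window and 1, Arntl, held the RORE, downstream of the annotated start. The windows of Dbp, Npas2, Loxl4, Clpx and Insig2, which departed as well, held none of the motifs. A match describes the letters in this window and is not evidence of binding, and motifs further away, such as in introns, were not searched.

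Of the other 7 genes that departed towards HepKO, 6 had no called difference at ZT2 itself. Their HepWT means were among the 2 lowest of the day at ZT2, where the genotypes lay close together. Gys2, the liver glycogen synthase, had 85.4 and 93.9 CPM in HepKO and 107 and 112 CPM in HepWT at ZT2 (-0.29 ± 0.15, adjusted p = 0.439) and a mean difference of -1.43 at the other times, a departure of 1.14 ± 0.17 (adjusted p = 0.00432). Nampt, the rate-limiting enzyme of NAD salvage, had 51.2 and 53.4 CPM in HepKO and 55.3 and 57.6 CPM in HepWT (-0.11 ± 0.11, adjusted p = 0.747) against -0.82 at the other times, a departure of 0.71 ± 0.12 (adjusted p = 0.0124). Neither gene's groups overlapped, although the differences at ZT2 were small. Cyp2a5, a cytochrome P450 with close relatives that may share its reads, had 180 to 223 CPM in the 4 libraries, with overlapping groups, and departed by 1.88 ± 0.37 (adjusted p = 0.0459).

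Pcsk4, a proprotein convertase (1.49 ± 0.27, adjusted p = 0.0261), Coq10b, which binds coenzyme Q (0.82 ± 0.15, adjusted p = 0.0253), Homer2, a scaffold protein (0.78 ± 0.15, adjusted p = 0.0459), and Plcb1, a phospholipase C called higher at ZT2 (0.57 ± 0.11, adjusted p = 0.042), complete the 14. Coq10b (0.73, adjusted p = 0.00558) and Plcb1 (0.54, adjusted p = 0.00633) were called higher in HepKO at ZT6. Among these 7 genes the departure of Gys2 was lost without HepKO ZT2 replicate 2 (1.07) or HepWT ZT2 replicate 2 (1.17), and those of Nampt (0.68 to 0.74) and Pcsk4 (1.374 to 1.598) without any 1 of the 4 ZT2 libraries. Coq10b lost its call without HepKO ZT2 replicate 1 (0.62), HepWT ZT2 replicate 2 (0.59), HepKO ZT6 replicate 1 (0.82) or HepKO ZT18 replicate 1 (0.81). Cyp2a5, Plcb1 and Homer2 were at the threshold and lost theirs in 17, 18 and 20 of the 24 fits that leave out 1 library.

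Genes that departed towards HepWT had their high in control liver around ZT2. Loxl4, a lysyl oxidase that crosslinks matrix proteins, had 57.7 and 67.9 CPM in HepKO and 17.0 and 18.4 CPM in HepWT, with the groups far apart (1.82 ± 0.19, adjusted p = 5.42e-05). Its difference at the other times was larger still, 3.83, since HepWT fell from 17.7 CPM at ZT2 to 1.09 CPM at ZT14, and ZT2 departed by -2.01 ± 0.22 (adjusted p = 0.000119). Grk5, which phosphorylates G protein-coupled receptors, had 122 and 126 CPM in HepKO and 24.8 and 19.1 CPM in HepWT, the smallest p of any gene at ZT2 (2.49 ± 0.13, adjusted p = 8.28e-09), and a departure of -0.89 ± 0.14 (adjusted p = 0.00588) from a mean of 3.38.

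Most of this group, 17 of 24, were not called at ZT2, and those described here were higher in HepKO over the other times. Clpx, the ATPase subunit of the mitochondrial ClpXP protease, which also activates the first enzyme of heme synthesis, had 425 and 414 CPM in HepKO and 341 and 373 CPM in HepWT. The HepKO libraries were above the HepWT libraries by little (0.23 ± 0.10, adjusted p = 0.314), whereas the mean over the other times was 1.45, a departure of -1.22 ± 0.11 (adjusted p = 1.5e-05). Insig2, which holds the cholesterol sensor SCAP and SREBP in the endoplasmic reticulum, had 458 and 386 CPM in HepKO and 327 and 380 CPM in HepWT (0.25 ± 0.14, adjusted p = 0.47) and 1.39 at the other times, a departure of -1.14 ± 0.16 (adjusted p = 0.00207). HepWT means of Clpx fell from 357 CPM at ZT2 to 67.9 CPM at ZT14 and those of Insig2 from 354 to 48.0 CPM, while HepKO means stayed within 366 to 474 CPM and 268 to 422 CPM.

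A further 5 genes with this profile were Tubb2a, a beta tubulin (-1.53 ± 0.28, adjusted p = 0.0253), Spon2, a secreted matrix protein (-1.40 ± 0.24, adjusted p = 0.0161), Chka, choline kinase alpha (-1.23 ± 0.20, adjusted p = 0.012), Ppard, the nuclear receptor PPAR delta (-1.17 ± 0.20, adjusted p = 0.0184), and Mad2l2, a subunit of DNA polymerase zeta (-0.95 ± 0.14, adjusted p = 0.00432). At ZT2 Chka stood at 130 and 161 CPM in HepKO and 134 and 154 CPM in HepWT, with overlapping groups, and Tubb2a at 148 and 158 CPM in HepKO and 159 and 164 CPM in HepWT. Their ZT2 differences were 0.02 and -0.08, and neither passed the test. Crot, which moves medium-chain acyl groups out of peroxisomes, was called lower at ZT2, with 740 and 688 CPM in HepKO and 1028 and 1069 CPM in HepWT (-0.55 ± 0.12, adjusted p = 0.0265), and also at ZT6 (-0.51, adjusted p = 0.024). Its mean over the other times was 0.32, which gave a departure of -0.88 ± 0.14 (adjusted p = 0.00624).

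The departures of Npas2, Arntl, Loxl4 and Clpx were called without each library in turn, and that of Insig2 without each but HepKO ZT2 replicate 2 (-1.02). Grk5 lost its departure without HepKO ZT2 replicate 1 (-0.87) or replicate 2 (-0.91), and Mad2l2 without HepKO ZT2 replicate 2 (-0.92) or HepWT ZT2 replicate 2 (-0.79). Without HepKO ZT2 replicate 1, HepKO ZT2 replicate 2 or HepWT ZT2 replicate 2 the calls were lost for Tubb2a (-1.58 to -1.48), Spon2 (-1.43 to -1.06), Chka (-1.39 to -1.09) and Crot (-0.93 to -0.82). Ppard lost its call without any 1 of the 4 ZT2 libraries (-1.34 to -1.01), as did the ZT2 difference of Crot (-0.61 to -0.50).

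**Figure D3:**
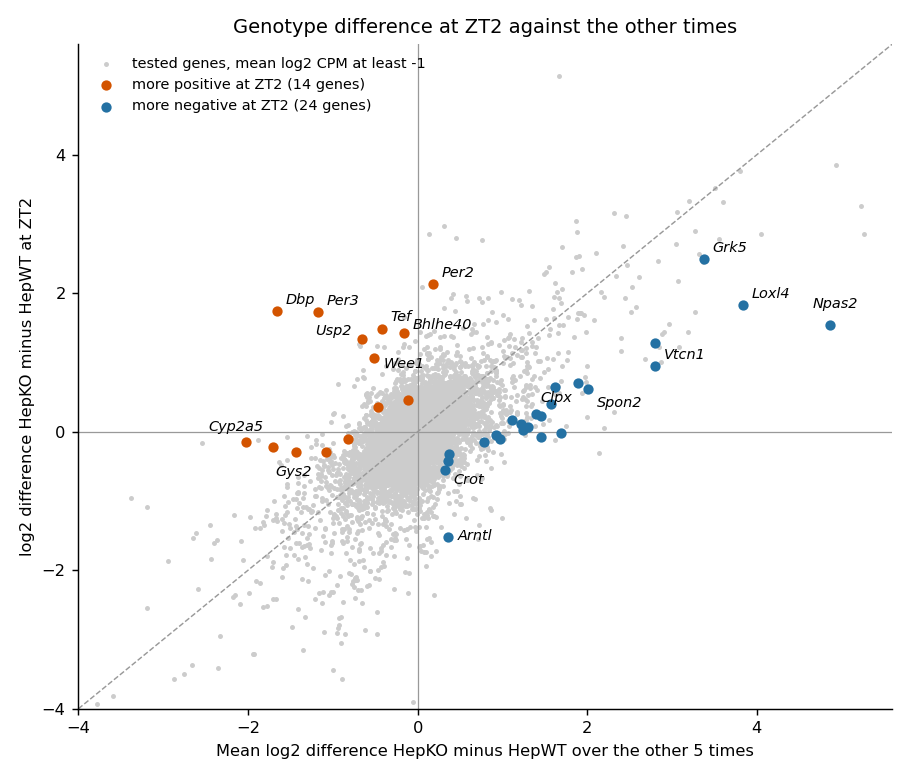
Genotype difference at ZT2 (y axis, log2 HepKO over HepWT) against its mean over the other 5 times (x axis, log2). Grey points are tested genes above a mean log2 CPM of -1, 13 of which lie outside the axes; orange and blue points are the 14 and 24 genes that departed from the dashed line of equal difference. Dbp, Per3, Usp2, Tef and Wee1 lie in the upper left, higher in HepKO at ZT2 and lower in the mean of the other times, and Arntl and Crot lie in the lower right, where HepKO is lower at ZT2 and higher in that mean.

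Seen over the 38 genes, the median daily change was larger in HepWT. Among the 14 that departed towards HepKO, ZT2 held the lowest HepWT mean in 9 and 1 of the 2 lowest in all 14. Among the 24 that departed towards HepWT, ZT2 held the highest HepWT mean in 20 and 1 of the 2 highest in all 24. Over all tested genes HepWT was lowest at ZT2 in 13.97% and highest in 16.2%. The median log2 range of the group means over the day was 2.59 in HepWT and 0.75 in HepKO for the 14 genes, and 2.62 and 0.80 for the 24, beside 0.62 and 0.57 over all tested genes. These profiles use the libraries that chose the genes and are given as a description. Of the 14, 8 were called higher at ZT2 and 6 were not called; of the 24, 5 were called higher, 2 lower and 17 were not called. In 17 of the 38 the sign at ZT2 was opposite to that of the mean of the other times.

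Outside the core clock, 13 named genes were among the largest differences at ZT2 (mean log2 CPM at least 1, groups apart), and 12 of them had the same sign at all 6 times. The exception was Neurl1b (0.24 at ZT6 and 0.33 at ZT14), whose mean over the other times did not pass the test (-0.28, adjusted p = 0.434). The 13 genes were chosen by their values at ZT2. The share of all tested genes with 1 sign at all 6 times was not counted. Moxd1, a copper monooxygenase relative, had 128 and 75.7 CPM in HepKO and 0.491 and 0 CPM in HepWT (8.66 ± 1.44, adjusted p = 0.00355), with 14 counts in 1 HepWT library and 0 in the other, so its size rests on few HepWT counts. Ntrk2, the receptor TrkB for brain-derived neurotrophic factor, had 38.3 and 28.2 CPM in HepKO and 0.526 and 0.319 CPM in HepWT (6.28 ± 0.80, adjusted p = 0.000344). In both genes every HepKO library at ZT2 was far above every HepWT library. Cyp2c55, a cytochrome P450, had 148 and 161 CPM in HepKO and 14.03 and 17.0 CPM in HepWT (3.32 ± 0.33, adjusted p = 3.42e-05), and Hectd2os, a transcript antisense to Hectd2, had 713 and 770 CPM in HepKO and 101 and 97.4 CPM in HepWT (2.90 ± 0.30, adjusted p = 3.59e-05). Slc34a2, a phosphate transporter (2.85 ± 0.39), Chrm3, the muscarinic M3 receptor (3.52 ± 0.75), and Srgap3, a GTPase-activating protein (2.79 ± 0.48), were higher too, at adjusted p of 0.000664, 0.0205 and 0.00498. Moxd1 and Srgap3 lost their calls without HepWT ZT2 replicate 2 (7.68 and 2.48), and Chrm3 without it (2.81) or without HepKO ZT2 replicate 1 (3.46) or 2 (3.59).

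Among the decreases, Ugt1a9, a glucuronosyltransferase that shares exons with the other Ugt1a genes, had 10.5 and 7.95 CPM in HepKO and 81.3 and 109 CPM in HepWT (-3.37 ± 0.32, adjusted p = 2.16e-05). After Nr1d1 came Mme, the peptidase neprilysin, with 7.95 and 6.97 CPM in HepKO and 48.3 and 39.0 CPM in HepWT (-2.55 ± 0.42, adjusted p = 0.00317). In both the HepKO libraries were at a small part of either HepWT level. Aqp4, a water channel, had 4.52 and 1.54 CPM in HepKO and 12.1 and 21.4 CPM in HepWT (-2.48 ± 0.58, adjusted p = 0.0333). Trib3, a pseudokinase induced by ATF4 (-2.42 ± 0.54), Abcb1a, a P-glycoprotein drug exporter (-2.32 ± 0.46), and Neurl1b, a ubiquitin ligase (-2.27 ± 0.49), were lower at adjusted p of 0.0265, 0.0132 and 0.0219. The calls of Aqp4 (-3.44 to -1.88), Trib3 (-2.42 to -1.93), Abcb1a (-2.60 to -1.75) and Neurl1b (-2.40 to -1.48) were lost without HepKO ZT2 replicate 1, HepKO ZT2 replicate 2 or HepWT ZT2 replicate 2, and that of Mme without HepKO ZT2 replicate 1 (-2.65) or 2 (-2.45). None of these 13 genes was called in the contrast of ZT2 with the other times. Rgs16, a regulator of G protein signalling on the clock output list, had 0 counts in both HepKO libraries and 27 and 135 counts in the HepWT libraries, at least 53.5-fold lower when 3 counts over the HepKO group are taken as the floor. Against HepWT replicate 1 alone the bound was 17.7-fold and against replicate 2 alone 89.7-fold. Its call was lost without HepKO ZT2 replicate 1, HepKO ZT2 replicate 2 or HepWT ZT2 replicate 2.

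Alb, which encodes albumin and whose promoter drives the Cre transgene, was lower in HepKO at ZT2, with 22227 and 22514 CPM in HepKO and 57235 and 82224 CPM in HepWT. Both HepKO libraries were below both HepWT libraries, which themselves differed (-1.64 ± 0.22, adjusted p = 0.000515). The mean over the other times was -1.30, and ZT2 did not depart from it by the test (-0.34 ± 0.23, adjusted p = 0.919). Of the 15 other hepatocyte markers none was called.

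Genes of drug metabolism held the most calls of any list in number. Of 40 tested, 9 were higher and 5 lower at ZT2, with a median of 0.29. Over all tested genes, 0.944% were called higher and 0.915% lower. The shorter core clock list had 8 called higher and 3 lower of 15, a larger share. The mu-class glutathione transferases, whose members are alike enough to share reads, were higher: Gstm2 had 252 and 253 CPM in HepKO and 43.7 and 63.5 CPM in HepWT (2.24 ± 0.18, adjusted p = 4.13e-06), Gstm3 differed by 2.47 ± 0.33 (adjusted p = 0.000525) and Gstm1 by 1.22 ± 0.19 (adjusted p = 0.00169). Sult1a1, a phenol sulfotransferase, was lower, with 71.3 and 77.5 CPM in HepKO and 227 and 293 CPM in HepWT (-1.80 ± 0.23, adjusted p = 0.000344). These 4 calls held without each library. In the contrast with the other times Cyp2a5 alone of the 40 was called.

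Calls in fuel metabolism at ZT2 were small in number, and stand beside 1.86% called over all tested genes. Ugp2, which makes UDP-glucose for glycogen, had 475 and 468 CPM in HepKO and 318 and 311 CPM in HepWT (0.58 ± 0.12, adjusted p = 0.0199). Of 23 glycolysis and glycogen genes 2 were called, both higher, and the median was -0.07. The call of Ugp2 was lost without any 1 of the 4 ZT2 libraries (0.57 to 0.60). Oat, a mitochondrial aminotransferase of ornithine, had 2177 and 1742 CPM in HepKO and 885 and 509 CPM in HepWT (1.49 ± 0.29, adjusted p = 0.0108), lost without HepKO ZT2 replicate 1 (1.32) or HepWT ZT2 replicate 2 (1.15).

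Of 32 genes of fatty acid oxidation and ketogenesis, 30 were below 0 with a median of -0.50. In this list 3 were called lower, beside 0.915% of all tested genes. Among them were Acaa1a, a peroxisomal thiolase (-0.54 ± 0.11, adjusted p = 0.015), and Slc25a20, the carnitine carrier (-0.56 ± 0.12, adjusted p = 0.0176). At the other times the median of the list was -0.34. Acaa1a (-0.60 to -0.47) and Slc25a20 (-0.63 to -0.49) lost theirs without HepKO ZT2 replicate 1, HepKO ZT2 replicate 2 or HepWT ZT2 replicate 2.

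Lipid synthesis and transport gave 4 calls, beside 1.86% called over all tested genes. Of 21 genes of apolipoproteins and VLDL assembly, 2 were called higher and 1 lower, with a median of 0.02. Elovl3, an elongase of very long fatty acids, had 1141 and 1031 CPM in HepKO and 571 and 168 CPM in HepWT (1.56 ± 0.38, adjusted p = 0.0468), and was the 1 called among 27 lipid synthesis genes (fatty acids and triglycerides), whose median was -0.21. On the log scale the HepWT libraries of Elovl3 were further apart from each other than the higher of them was from HepKO, and its call was lost in 21 of the 24 fits without 1 library (0.93 to 2.69). None of 26 cholesterol genes was called at ZT2, where their median was 0.16 against 0.93 at the other times; replicate 2 of HepWT stood above replicate 1 by a median of 0.47 in this list, and the part of that spread in the result was not tested. Lpl, lipoprotein lipase, had 461 and 345 CPM in HepKO and 38.9 and 97.5 CPM in HepWT (2.56 ± 0.45, adjusted p = 0.00541), and its call was lost without HepKO ZT2 replicate 1 (2.34). Apom, which carries sphingosine 1-phosphate on lipoproteins, was lower, with 124 and 124 CPM in HepKO and 226 and 271 CPM in HepWT (-1.01 ± 0.12, adjusted p = 0.000281), a call kept without each library. Apoh, beta-2-glycoprotein I, rose by 0.49 ± 0.11 (adjusted p = 0.0265), lost without any 1 of the 4 ZT2 libraries (0.48 to 0.51).

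**Figure D4:**
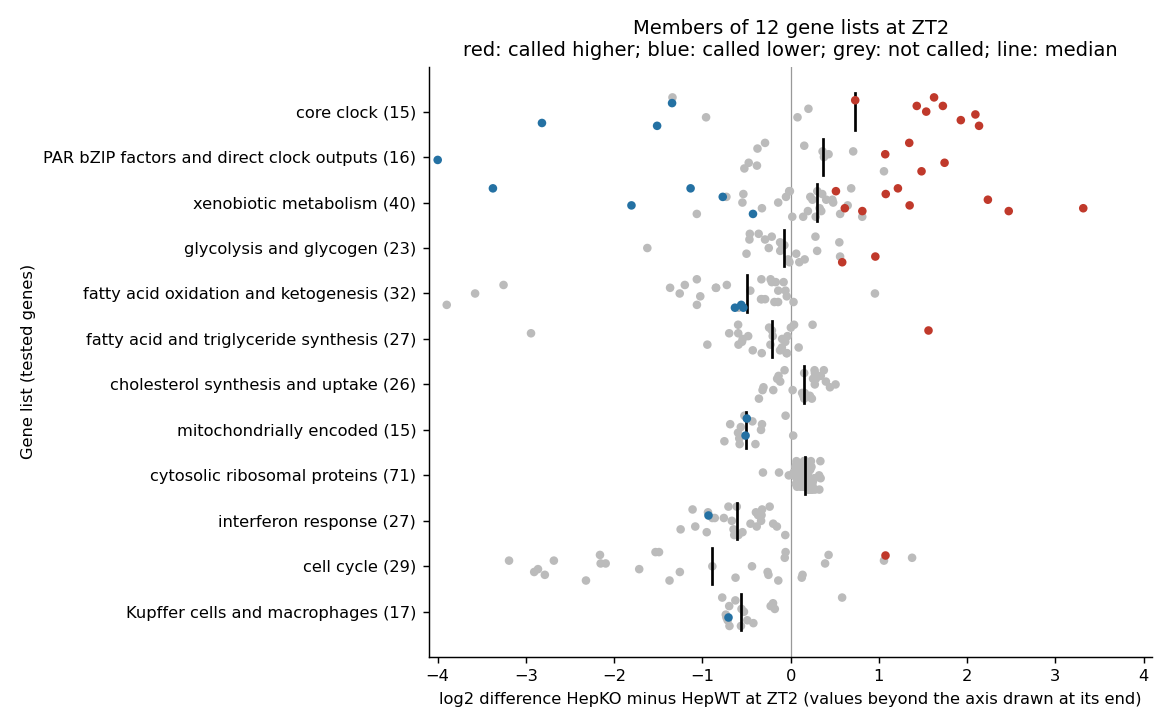
Log2 differences of HepKO over HepWT at ZT2 (x axis) for the tested members of 12 gene lists (y axis, number tested in brackets). Each point is a gene, red if called higher, blue if called lower and grey if not called; black lines are list medians, and 1 gene beyond the axis is drawn at its end. Called genes gather in the clock, clock output and xenobiotic lists, while the ribosomal, interferon and macrophage lists lie mostly to 1 side of 0 with at most 1 call each.

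Several lists lay mostly to 1 side of 0 with few or no calls. Of 71 cytosolic ribosomal protein genes, 68 were above 0 (median 0.16) and none was called. The median at the other times was 0.18. In this list HepWT replicate 2 exceeded replicate 1 by a median of 0.13 at ZT2, and the part of that spread was not tested. Of 15 mitochondrially encoded RNAs, 14 were below 0 (median -0.51) and 2 were called, mt-Nd1 (-0.50 ± 0.11, adjusted p = 0.0273) and mt-Co1 (-0.51 ± 0.12, adjusted p = 0.0421). Both calls were lost without any 1 of the 4 ZT2 libraries (-0.54 to -0.45 and -0.56 to -0.46), and that of mt-Co1 also without either library of HepKO ZT6, 18 or 22 or of HepWT ZT10. At the other times the median of the mitochondrial list was -0.40. The share of mitochondrial counts was 9.79% and 10.98% in HepKO and 9.52% and 12.2% in HepWT at ZT2, so the groups overlapped in it, and its part in these values was not tested.

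All 27 interferon response genes were below 0 (median -0.61), with Gbp2, a guanylate-binding protein, called lower (-0.93 ± 0.21, adjusted p = 0.0259). That call was lost without HepKO ZT2 replicate 1, HepKO ZT2 replicate 2 or HepWT ZT2 replicate 2 (-0.97 to -0.61). Of 29 cell cycle genes, Wee1 was called and the median was -0.89. At the other times the medians were -0.20 for the interferon list and -0.56 for the cell cycle list. In these lists HepWT replicate 2 exceeded replicate 1 by medians of 0.48 and 0.95, and in the cell cycle list the summed levels were 180 and 187 CPM in HepKO and 179 and 317 CPM in HepWT. The lower median of that list thus went with 1 HepWT library, and the part of that library was not tested.

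Markers of Kupffer cells and macrophages, which keep Arntl, were below 0 at ZT2 in 16 of 17 genes. Their median was -0.56, against -0.33 at the other times. They summed to 479 and 577 CPM in HepKO and to 645 and 739 CPM in HepWT, none was at 0 counts in all libraries, and C1qb alone was called (-0.71 ± 0.18, adjusted p = 0.0494), a call lost in 17 of the 24 fits that leave out 1 library (-0.89 to -0.50). Their part in the lower interferon values was not tested. None of the tested markers of endothelium (17), stellate cells (16), cholangiocytes (8), T and NK cells (10), B cells (9), erythroid cells (6), adipocytes (4) or neutrophils (3) was called. Pericentral hepatocyte markers gave 2 increases among 18, Oat and Lhpp, and periportal markers 1 decrease among 14, Aldh1b1. Over all tested genes 0.944% were called higher and 0.915% lower. Both lists held both signs, with 7 pericentral markers below 0 (median 0.19) and 4 periportal markers above 0 (median -0.08). The calls of Lhpp (0.84 to 1.28) and Aldh1b1 (-1.68 to -1.12) were lost in 2 and 3 of those 24 fits. Cela1, on the pancreas list, was higher, with 48.2 and 47.5 CPM in HepKO and 14.4 and 10.3 CPM in HepWT (1.95 ± 0.22, adjusted p = 0.000113). The 1 other gene of that list that passed the filter lay the other way, at -1.26, and was not called.

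No gene was called at ZT2 in the lists of NAD synthesis and sirtuins (14 tested), nuclear receptors (19), bile acids (19), heme and iron (19), ribosome biogenesis (26), heat shock (22), endoplasmic reticulum folding (22), immediate early genes (18), nuclear-encoded respiratory chain (44), complement and coagulation (30), acute phase (22), autophagy (20), temperature-responsive RNA-binding genes (14) or clock kinases and ubiquitin ligases (12). Lists with 1 called gene, beside those described above, were those of Trib3 of 18 ATF4 targets, Gpx1, a glutathione peroxidase (-0.51 ± 0.11, adjusted p = 0.0228), of 19 NRF2 and glutathione genes, of Per1, in the gluconeogenesis and glucocorticoid lists of 18 each, and of Elovl3 among 28 growth hormone and STAT5 genes. The call of Gpx1 was lost without HepKO ZT2 replicate 1, HepKO ZT2 replicate 2 or HepWT ZT2 replicate 2 (-0.51 to -0.49). Over all tested genes 1.86% were called, so no call or 1 call in lists of this size is near that share. In simulated counts over 17275 genes, a difference at ZT2 was given to some genes with a mean log2 CPM above 1. Of those given a log2 difference of 1, 74% were called, and of those given 2, 99%. Differences of 2-fold and below could thus be missed at this depth and spread. Genes of lower level were given no difference, so the shares do not cover them.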

How the data were processed

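Liver RNA was sequenced from ribosomal RNA-depleted total RNA with a stranded kit, per the labels' protocols. The deposited table holds counts, whole numbers of reads per Ensembl gene and library without normalization. Alignment was with STAR 2.4.0i to mm10, per the submitters' processing notes; the counter, its annotation, strand setting and filters were not given in the sources used here. Overlapping and antisense genes, and families with shared sequence (Gstm, Ugt1a, Cyp2a, Cyp2c), are therefore uncertain. All columns were mapped to samples by name (0 left over); 5 HepKO replicate 2 columns, none of ZT2, have an unexplained suffix in their names. Samples were grouped by genotype and time, 2 in each of 12 groups.

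Counts of the 24 libraries were fitted in edgeR 4.0.16 (R 4.3.3, limma 3.58.1) with 1 level per group, TMM scaling, filterByExpr (minimum count 10, minimum total 15) and the two-sided quasi-likelihood F test (12 residual degrees of freedom), with Benjamini-Hochberg adjustment over 17275 genes. CPM were computed from the counts with TMM scaling. The ZT2 contrast is the genotype difference at ZT2 minus the mean of those at the other 5 times. SE is the log2 difference divided by the square root of F. Positions are from GENCODE M21 (GRCm38). The steps were tested on simulated data.

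The members, the 45 gene lists and the tests were chosen with earlier results of these data known. Named were the core clock genes and Alb, the 8 largest increases and decreases at ZT2 and in each direction of the contrast among called genes (mean log2 CPM at least 1), up to 2 called genes of each list at ZT2 and 1 in the contrast, and the remaining genes called in the contrast. Predicted gene models taken by this rule were counted but not named, and some other genes it takes are not reported here. Rgs16, Gstm1, Gstm3, Sult1a1, Apoh, C1qb, Lhpp, Aldh1b1 and Cela1 were named after seeing their values. Tried as alternatives were limma-voom, DESeq2 1.42.0 and its size factors, a threshold of 0.01, other filters, a replicate block, a spread from ZT2 alone, ZT22 and ZT6 as comparison, and leaving out libraries. Fits with the HepWT replicate 1 or replicate 2 libraries alone were added after seeing the data. A group left with 1 library took its spread from the other groups. Depth limits precision, and PCR reads are not independent molecules.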

Additional observations from a re-analysis of the deposited data

Results flagged for a closer look

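By the test of the difference itself, the genotype difference at ZT2 departed from its mean over the other 5 times in 35 named genes (log2, edgeR adjusted p below 0.05, 2 libraries a group). Those with a departure towards HepKO were Dbp (3.40), Per3 (2.90), Usp2 (2.00), Per2 (1.95), Tef (1.90), Cyp2a5 (1.88), Wee1 (1.59), Bhlhe40 (1.59), Pcsk4 (1.49), Gys2 (1.14), Coq10b (0.82), Homer2 (0.78), Nampt (0.71) and Plcb1 (0.57). Those towards HepWT that the report describes were Npas2 (-3.32), Loxl4 (-2.01), Arntl (-1.87), Tubb2a (-1.53), Spon2 (-1.40), Chka (-1.23), Clpx (-1.22), Ppard (-1.17), Insig2 (-1.14), Mad2l2 (-0.95), Grk5 (-0.89) and Crot (-0.88). No group had enough libraries for a test of single outlying libraries.

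The remaining 9 genes departed towards HepWT as well. Vtcn1, an immune checkpoint protein of the B7 family, had 3.51 and 2.98 CPM in HepKO and 1.33 and 2.02 CPM in HepWT at ZT2 and departed by -1.85 ± 0.35. Asap2, a GTPase-activating protein for Arf, had 35.6 and 29.7 CPM in HepKO and 18.0 and 22.1 CPM in HepWT and departed by -1.18 ± 0.19. Rnf125, a ubiquitin ligase, had 351 and 366 CPM in HepKO and 309 and 352 CPM in HepWT and departed by -1.10 ± 0.21, and Tymp, thymidine phosphorylase, had 34.6 and 38.0 CPM in HepKO and 34.4 and 43.6 CPM in HepWT and departed by -1.07 ± 0.20. Trmt9b (-0.99 ± 0.19), Denn2b (-0.97 ± 0.19), Lrfn3 (-0.93 ± 0.14), Lnx2, a ubiquitin ligase (-0.78 ± 0.15), and Stat5b, the growth hormone-activated transcription factor (-0.68 ± 0.13), followed. Of these, Vtcn1, Asap2 and Trmt9b were higher in both HepKO libraries at ZT2, Lnx2, Lrfn3 and Stat5b lower in both, and the groups of the other 3 overlapped. With 2 libraries a group such separation is no test, and its share over all tested genes was not counted.

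The calls of 7 of these 9 genes were lost in 12 (Trmt9b), 13 (Rnf125, Tymp), 14 (Denn2b), 16 (Lnx2), 17 (Vtcn1) or 19 (Stat5b) of the 24 fits that leave out 1 library, while all 24 values of each kept their sign. Asap2 lost its call without HepKO ZT2 replicate 2 (-1.05) or HepWT ZT2 replicate 2 (-1.03), and Lrfn3 without HepKO ZT2 replicate 1, HepKO ZT2 replicate 2 or HepWT ZT2 replicate 2 (-0.95 to -0.90).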

How the results depend on the processing

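Of 321 genes called at ZT2 (163 higher, 158 lower) and 38 in the contrast with the other times (24 towards HepWT, 14 towards HepKO), 63 and 9 were called in all 24 fits that leave out 1 library; the 9 are Dbp, Per3, Tef, Per2, Wee1, Npas2, Arntl, Loxl4 and Clpx. Among these 24 fits the counts moved most without a ZT2 library. Leaving out 1 library gave 83 (without HepWT ZT2 replicate 2) to 459 (without HepWT ZT2 replicate 1) genes at ZT2, 50 to 199 higher and 32 to 260 lower, and 11 (without HepKO ZT2 replicate 2) to 72 (without HepWT ZT2 replicate 1) in the contrast, 4 to 45 towards HepWT and 6 to 27 towards HepKO. Without HepKO ZT2 replicate 1 there were 90 and 15 genes, without HepKO ZT2 replicate 2 111 at ZT2, and without HepWT ZT2 replicate 2 13 in the contrast; without HepKO ZT6 replicate 1 or HepKO ZT18 replicate 1 the contrast called 25.

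With an adjusted p below 0.01, 120 genes (66 higher, 54 lower) and 17 (10 towards HepWT, 7 towards HepKO) remained past the threshold. DESeq2 called 536 (266, 270) and 99 (69, 30), no filter on low counts 1246 (490, 756) and 443 (286, 157), HepWT replicate 1 libraries alone 189 (105, 84) and 21 (13, 8), HepWT replicate 2 libraries alone 880 (351, 529) and 121 (83, 38), and omission of 5 shallow HepKO libraries 175 (98, 77) and 16 (8, 8). With the spread from the 4 ZT2 libraries only, 218 were called at ZT2 (104 higher). Against ZT22 and ZT6 only, 3 were called (0 towards HepWT, 3 towards HepKO). limma-voom (317 and 43), DESeq2 size factors (313 and 38) and a stricter filter (335 and 39) gave similar counts. The cause of these shifts was not tested.

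With the replicate block the counts were 374 (175, 199) and 30 (19, 11). Differences between replicates correlated between genotypes at -0.107 to 0.092 over the 6 times, so pairing did not show by this measure. The labels do not say if the replicate numbers mark pairs, and the reported fit took them as unpaired.

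Some signs changed. At ZT2, where the differences were near 0, this held for Tymp (0.083 with HepWT replicate 1 libraries alone; -0.263 to 0.078 over fits without 1 library), Chka (-0.070 with HepWT replicate 2 libraries alone; -0.136 to 0.163) and Denn2b (0.14 with HepWT replicate 1 libraries alone; -0.204 to 0.135). In the contrast it held for Nr1d2 (-0.19), Nampt (-0.057) and Coq10b (-0.065) against ZT22 and ZT6 only, and for Ciart over fits without 1 library (-1.06 to 2.05).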
